A study of Mus musculus with 4 samples.

Results

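The SLAM (signalling lymphocytic activation molecule) receptors and the SAP adaptors that read their cytoplasmic tails were followed in mature spleen natural killer (NK) cells of Tcf7 knock-out mice. Tcf7 encodes the transcription factor Tcf-1. The 9 genes were taken by name, 6 receptors (Slamf6, Slamf7, Cd244a, Cd48, Cd84 and Ly9) and 3 adaptors (Sh2d1a, Sh2d1b1 and Sh2d1b2). All 9 were found by Entrez number among the 26611 genes of the count table. RNA was sequenced from 2 Tcf7 knock-out (KO) mice and 2 wild-type (WT) mice of C57BL/6 background, each mouse giving 1 library. The labels do not name the KO allele, its target cells, or the age of the mice. In both groups the cells were sorted from spleen as TCRbeta-negative cells bearing NK1.1, NKp46, CD11b and KLRG1. CD11b and KLRG1 mark late NK cell maturation, so less mature NK cells were not sampled.

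SLAM receptors are immunoglobulin-like surface proteins of blood cells. Most bind the same receptor on a neighbouring cell, whereas the receptor 2B4 (Cd244a) binds CD48. Their tails carry tyrosine motifs that recruit SAP, EAT-2 or ERT, small proteins made mostly of an SH2 domain. With these adaptors present the receptors activate NK cells against blood-cell targets, and without them the same tails can recruit inhibitory phosphatases.

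The libraries held 28254693 and 37384979 counts (KO) and 31860505 and 40175537 counts (WT). Levels of a gene between libraries are in CPM, which divides counts by the TMM-adjusted library size, where 1 CPM stood for 29.3 to 39.3 counts. Levels of different genes are compared only as RPKM, which divides CPM by the deposited gene length in kilobases. Tcf7 stood at 11.2 and 25.04 CPM in KO libraries, against 89.4 and 79.0 CPM in WT libraries. The sorted-protein genes Ncr1 and Klrb1c were high in all 4 libraries, with log2 fold changes of -0.08 and -0.01, Itgam stood at -0.19 and Klrg1 at 0.58. The Cd3 genes Cd3d, Cd3e and Cd3g together held 5.18 to 8.79 CPM in the KO libraries and 5.22 to 7.50 CPM in the WT libraries. Of 11 tested T cell markers, 5 had log2 fold changes above 0 and 6 below. The largest was that of Trac, 3.20, at 93.9 and 36.0 CPM in KO libraries against 5.87 and 8.30 CPM in WT libraries.

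Across all genes, edgeR's quasi-likelihood test called 0 of 12723 tested genes (0%) at a Benjamini-Hochberg adjusted p under 0.05, and none of the 9 SLAM and SAP genes. DESeq2 called 71 genes (0.558%) and limma voom 0 (0%), again with none of the 9. At an unadjusted p under 0.05, edgeR found 361 genes (2.84%) and limma voom 349 (2.74%). The edgeR genes comprised 1.7% of tested genes that lay higher in KO cells and 1.14% that lay lower. In edgeR, 1 of the 9 was among the lower ones, Slamf6, and none among the higher ones. With the library number as a further term, edgeR called 1.74% and DESeq2 1.89% of tested genes, each with Slamf6 as the single one of the 9. The KO levels were below the WT levels in every pairing of libraries for Slamf6, Sh2d1b1 and Sh2d1b2, as for 11.6% of all tested genes. Slamf6 and Sh2d1b2 passed the filter on low counts (0.289 CPM in 2 libraries) through the WT libraries alone. For these genes the order was thus fixed by the filter and is no support. No gene of the 9 had both KO libraries above both WT libraries (9.64% of all tested genes). The median log2 fold change (KO minus WT) over the 9 genes was -0.13, beside -0.01 over all tested genes. With 2 libraries per group an exact permutation test cannot give a p below 0.333, and the models borrow their estimate of spread from the other genes.

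**Figure D1:**
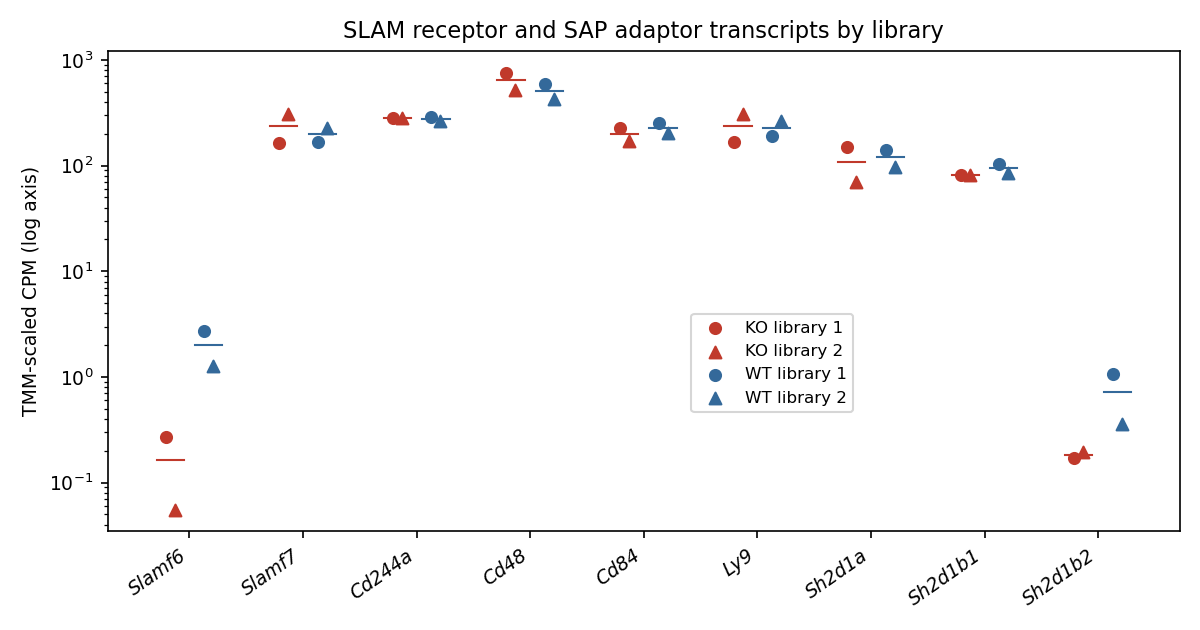
TMM-scaled CPM (log axis) of each gene in the KO libraries (red, left) and the WT libraries (blue, right); circles are libraries 1, triangles are libraries 2, and lines are group means. Slamf6 lies at 0.273 and 0.0555 CPM in KO against 2.74 and 1.27 CPM in WT, while Cd244a lies between 264 and 291 CPM in all 4 libraries.

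Per length, the genes fell into an abundant set and a scarce pair. Over the 4 libraries the lowest, median and highest levels were 370, 490 and 666 RPKM for Cd48, which ranked 131 of 12723 tested genes by mean RPKM. Sh2d1a followed with a median of 146 RPKM and a rank of 570, then Ly9 with 92.6 RPKM and Cd244a with 74.9 RPKM. Sh2d1b1 had a median of 58.4 RPKM, Slamf7 of 49.8 RPKM and Cd84 of 34.2 RPKM. Sh2d1b2, at a median of 0.690 RPKM, and Slamf6, at 0.316 RPKM, ranked 10178 and 11256. The ranges of neighbours in this order did not overlap between Cd48 and Sh2d1a, between Slamf7 and Cd84, and between Cd84 and Sh2d1b2. They overlapped for all other neighbours. Sh2d1a, at 85.0 RPKM or more in all 4 libraries, overlapped with Ly9 but lay above Cd244a, Sh2d1b1 and Slamf7, whose highest values were 77.5, 72.9 and 76.9 RPKM.

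Slamf6 (Entrez gene 30925; mm10 chromosome 1, 171917458 to 171948958) encodes Ly108, a receptor that binds itself and, in T cells, is widely used as a surface marker of memory-like cells that express Tcf-1. It had 8 and 2 counts in KO libraries, against 89 and 50 counts in WT libraries. On the CPM scale these were 0.273 and 0.0555 in KO and 2.74 and 1.27 in WT. The groups did not overlap, and KO library 2 lay under the 0.0832 CPM that a count of 0 allows in that library (3 counts). Between the KO libraries, library 2 had more Tcf7 (25.04 against 11.2 CPM) and less Slamf6 than library 1. The Slamf6 part rests on 8 and 2 counts, and in WT, too, library 2 had less Slamf6 than library 1. A relation between the levels of Tcf7 and Slamf6 was not tested.

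Slamf6 averaged 0.164 ± 0.154 CPM in KO cells and 2.00 ± 1.04 CPM in WT cells (SD, n = 2 each). In edgeR this was a log2 fold change of -3.62 (SE 0.93, 95% interval -6.09 to -1.15). The edgeR p was 0.0141 before and 1.00 after adjustment. DESeq2 gave an adjusted p of 0.0512 over the same 12723 genes, and 0.0371 when all genes with a count entered, where it called 78 of 20484 genes (0.381%). The 10 counts of both KO libraries against the 139 of both WT libraries gave a KO to WT ratio of 0.0790, or 12.7-fold lower, with an exact 95% interval of 6.68-fold to 27.0-fold that covers counting error only. Leaving out KO library 2 gave -2.83 on the log2 scale, and leaving out KO library 1 gave -5.09. An antisense RNA is annotated over the 5′ end of Slamf6 (GENCODE M21), and without a stated strand setting its reads cannot be told apart from those of Slamf6. Slamf6 passed the filter on low counts (0.289 CPM in 2 libraries) through the WT libraries alone. In these sorted populations, fewer cells carrying the transcript and less transcript per cell cannot be told apart.

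Of all tested genes, 8 (0.0629%) had a log2 fold change as low as that of Slamf6 or lower, Slamf6 included. As Slamf6 had few KO counts and passed the filter through the WT libraries alone, this rank is a description and no support. Markers of other cell types were summed in the same libraries. The 14 T cell markers summed to 313 and 179 CPM in KO and 233 and 188 CPM in WT. Of 11 tested, 1 lay higher at an unadjusted edgeR p under 0.05, beside 1.7% of all tested genes, and none lower. It was Trac, which DESeq2 also called. Summed levels of the 14 B cell and plasma cell markers were 545 and 237 CPM in KO and 278 and 186 CPM in WT. None of 12 tested had an unadjusted edgeR p under 0.05, beside 2.84% of all tested genes. Those of 19 myeloid and dendritic markers were 1792 and 1266 CPM in KO and 923 and 645 CPM in WT. All 18 tested had log2 fold changes above 0, and 6 had both KO libraries above both in WT, beside 9.64% of all tested genes. Between the libraries 2, however, Csf1r, Adgre1, Mpeg1, Cd300a, C1qa and Vcam1 lay lower in KO than in WT. At an unadjusted edgeR p under 0.05, 3 lay higher (Itgax, Mpo and Elane), beside 1.7% of all tested genes. DESeq2 called 2 of them, Mpo and Elane, beside 0.558% of all tested genes. Mpo and Elane, which are also among the 6, passed the filter on low counts through the KO libraries alone. Their place in these counts is thus a description and no support. In this list Itgax, which NK cells also express, held most of the counts, and without it the sums were 665 and 102 CPM in KO and 191 and 41.7 CPM in WT. The 10 markers of other innate lymphoid cells summed to 56.3 and 114 CPM in KO and 76.9 and 123 CPM in WT. Most of this was Gata3, at 29.8 and 87.7 CPM in KO and 46.6 and 82.7 CPM in WT. Of the 9 tested, 3 had log2 fold changes above 0 and 6 below, and 2 lay lower at an unadjusted p under 0.05, as did 1.14% of all tested genes. They were Il7r, the interleukin 7 receptor gene, at 0.648 and 1.08 CPM in KO against 9.38 and 5.80 CPM in WT, and Tnfrsf25, a death receptor family gene, at 0.170 and 0.388 CPM in KO against 0.953 and 0.891 CPM in WT. DESeq2 called Il7r (adjusted p = 1.68e-05) and not Tnfrsf25. The 7 erythroid markers summed to 207 and 123 CPM in KO and 40.2 and 29.2 CPM in WT. All 7 were tested and had log2 fold changes above 0, with a median of 2.28. In 5 both KO libraries lay above both in WT, beside 9.64% of all tested genes. At an unadjusted edgeR p under 0.05, 5 lay higher, beside 1.7% of all tested genes, and DESeq2 called 3. The part of these cells in the Slamf6 difference was not tested.

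The promoter of Slamf6 is shown because this gene had the largest difference among the 9 and Tcf-1 binds DNA at CTTTG cores. RefSeq promoter windows on GRCm38.p6, of 250 bases before to 50 bases after a transcript start, were found for 7 of the 9 genes, and none for Ly9 and Sh2d1a. They were searched on both strands for the Tcf heptamers CTTTGAA and CTTTGAT, and also CTTTGTA and CTTTGTT, which 16.9% of all 32851 windows held. The Slamf6 window held none, which says only that these letters are not in this window. The stretch before the gene start is at chr1:171917212-171917457 on the plus strand, in lower case throughout because nothing matched.
Slamf6: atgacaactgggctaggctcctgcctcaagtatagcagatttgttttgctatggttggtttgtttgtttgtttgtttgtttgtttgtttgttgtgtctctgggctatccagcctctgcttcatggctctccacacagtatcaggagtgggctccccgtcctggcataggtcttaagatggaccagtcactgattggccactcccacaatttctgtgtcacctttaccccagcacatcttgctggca

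The single Tcf heptamer among the 7 windows was in Slamf7, beginning 147 bases before the transcript start that the window is built on. A T-box heptamer (GGTGTGA, in 3.98% of all windows) was in Cd48, beginning 73 bases before its own. For both genes that transcript start lies inside the gene span given for them here, so other transcripts of the same gene begin further upstream. No Runx heptamer (TGTGGTT, in 5.27% of all windows) was found in the 7, and the matches did not overlap one another. Capitals mark the matched letters in the stretches below, at chr1:171649130-171649156 on the minus strand for Slamf7 and chr1:171681909-171681935 on the plus strand for Cd48.
Slamf7: aaaaaaatccTACAAAGtgtgtgtgat
Cd48: cattccatgtGGTGTGAtggtagtggt

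The ligand gene Cd48 (chromosome 1, 171681245 to 171705258) encodes a glycolipid-anchored protein without a cytoplasmic tail that is found on most blood cells and is bound by 2B4. It stood at 760 and 525 CPM in KO libraries, against 594 and 423 CPM in WT libraries. The groups overlapped, and both libraries 1 were higher than the library 2 of their genotype. The log2 fold change was 0.34 (SE 0.30, 95% interval -0.47 to 1.15, edgeR adjusted p = 1.00). With the library number as a further term, edgeR gave 0.33 (95% interval 0.03 to 0.63). There its edgeR p was 0.0329 unadjusted, as under 0.05 for 10.8% of all tested genes, and 0.391 adjusted. Cd48 accounted for 75.1% and 60.1% of the summed RPKM of the 6 receptor genes in KO libraries, against 68.6% and 58.0% in WT libraries.

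Its receptor gene Cd244a (chromosome 1, 171558718 to 171585316) was the steadiest of the 9. 2B4 can activate or inhibit NK cells, depending on the adaptors at hand. Cd244a stood at 282 and 281 CPM in KO libraries, against 291 and 264 CPM in WT libraries. Both KO libraries fell between the WT libraries. Its log2 fold change was 0.02 (SE 0.19), and the 95% interval of -0.48 to 0.52 leaves room for a fold of 0.716 to 1.43. The sign turned without WT library 2 (-0.03).

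Slamf7 (chromosome 1, 171632403 to 171653037) encodes CRACC, a receptor that binds itself and activates NK cells through EAT-2. It stood at 164 and 306 CPM in KO libraries, against 166 and 230 CPM in WT libraries. The highest value was in KO library 2, and the other KO library lay just below both WT libraries. The difference on the log2 scale was 0.25 (SE 0.38, 95% interval -0.77 to 1.27), and without KO library 2 it was -0.23.

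Ly9 (chromosome 1, 171588613 to 171607410), which encodes the self-binding receptor CD229, had nearly the same profile as Slamf7, its neighbour on the chromosome. It stood at 167 and 310 CPM in KO libraries, against 190 and 264 CPM in WT libraries. Here the KO libraries lay on either side of both WT libraries. The difference on the log2 scale was 0.07 (SE 0.38, 95% interval -0.95 to 1.09), but -0.41 when KO library 2 was left out and -0.15 when WT library 1 was. The RefSeq spans of Ly9 and Cd244a given here do not overlap. GENCODE M21, however, has Ly9 overlapping a longer Cd244a gene on the opposite strand, so reads of the overlap could have been lost or shared. Which annotation release was used for counting is not stated.

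Cd84 (chromosome 1, 171839697 to 171890718), another self-binding receptor, stood at 226 and 169 CPM in KO libraries, against 252 and 202 CPM in WT libraries. The groups overlapped. On the log2 scale this was -0.20 (SE 0.25, 95% interval -0.87 to 0.47), and without KO library 2 it was 0.03. In the fit on genotype alone, none of the 5 abundant receptor genes had a difference between genotypes larger than the spread between libraries. The intervals of that fit reach a fold of 0.518 at the low end (Ly9) and 2.41 at the high end (Slamf7).

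**Figure D2:**
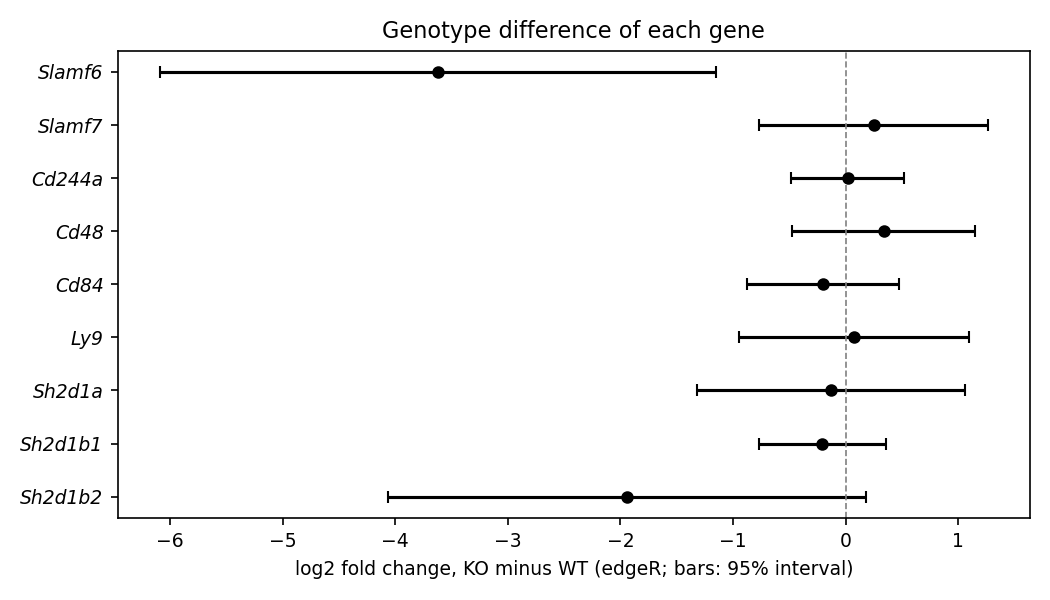
Log2 fold change of each gene (KO minus WT, edgeR) with its 95% interval; the dashed line marks no difference. The interval of Slamf6 (-6.09 to -1.15) lies below 0 and those of the other 8 genes include 0.

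Sh2d1a (chromosome X, 42502565 to 42522097) encodes SAP, which binds the receptor tails and brings in the kinase Fyn, and whose loss in humans causes an X-linked lymphoproliferative disease. It stood at 149 and 69.6 CPM in KO libraries, against 142 and 97.1 CPM in WT libraries. The KO libraries lay on either side of both WT libraries, and both libraries 1 were higher than the library 2 of their genotype. On the log2 scale the difference was -0.13 (SE 0.45, 95% interval -1.32 to 1.06). Its sign turned when KO library 2 was left out (0.35) and when WT library 1 was (0.16). As the gene is X-linked, the sex of the mice was read from sex-linked genes. All 4 libraries held Y-linked Ddx3y at 73.1 to 83.6 CPM and the X-inactivation transcript Xist at 0 to 4 counts. Both genotypes thus had the pattern of male cells.

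Sh2d1b1 (chromosome 1, 170277318 to 170286769) encodes EAT-2, an adaptor of NK cells and dendritic cells. It stood at 82.3 and 81.8 CPM in KO libraries, against 104 and 85.1 CPM in WT libraries. The groups did not overlap, by a small margin for WT library 2. The mean was 82.1 ± 0.365 CPM in KO cells and 94.7 ± 13.7 CPM in WT cells (SD, n = 2 each). Their difference on the log2 scale was -0.21 (SE 0.21, 95% interval -0.77 to 0.36; edgeR adjusted p = 1.00).

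Sh2d1b2 (chromosome 1, 170232871 to 170251587) encodes ERT, a close relative of EAT-2 in mice. It had 5 and 7 counts in KO libraries, against 35 and 14 counts in WT libraries. These were 0.170 and 0.194 CPM in KO, both below the 1.08 and 0.356 CPM in WT, and WT library 1 stood apart from the other 3 libraries. Fitted in edgeR, the log2 fold change was -1.94 (SE 0.80, 95% interval -4.06 to 0.18), with an unadjusted p of 0.0647 and 1.00 when adjusted over all genes by edgeR. Leaving out WT library 1 gave -0.95. The 12 counts in KO against 49 in WT gave a ratio of 0.269 with an exact 95% interval of 0.130 to 0.513, for counting error only. Like Slamf6, this gene passed the filter through the WT libraries alone.

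Reads of the EAT-2 and ERT genes can be shared where their sequences are identical, so the low level of Sh2d1b2 is uncertain, and how the reads were split was not tested. The coding sequences (GENCODE M21, GRCm38) are 399 bases each and 90.7% identical without gaps, and the first difference is at position 155 counted from the start codon, so reads within the first 154 coding bases cannot be told apart and those beyond can differ. Whole transcripts were 83.4% identical. The deposited length of Sh2d1b2 is also 399 bases, the coding length, whereas that of Sh2d1b1 is 1433 bases. Reads from untranslated parts of the ERT transcript would thus not be counted for it. Bases 101 to 260 of each coding sequence are shown to make the shared and the distinct part visible, with the 16 differing bases in capitals. They run over introns, from chr1:170277476-170283196 for Sh2d1b1 and from chr1:170232971-170250090 for Sh2d1b2, both on the plus strand.
Sh2d1b1: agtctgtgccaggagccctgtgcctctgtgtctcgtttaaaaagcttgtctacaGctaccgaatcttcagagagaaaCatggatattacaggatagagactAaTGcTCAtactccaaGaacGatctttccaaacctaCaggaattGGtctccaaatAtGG
Sh2d1b2: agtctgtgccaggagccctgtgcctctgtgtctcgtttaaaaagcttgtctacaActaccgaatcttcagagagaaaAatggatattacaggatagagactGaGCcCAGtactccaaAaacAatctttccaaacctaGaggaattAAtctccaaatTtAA

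By contrast, the coding sequence of Sh2d1a shared no run longer than 11 bases with Sh2d1b1 or Sh2d1b2. Per length, SAP transcripts exceeded EAT-2 transcripts in every library, by 3.17 and 1.49 times in KO and 2.38 and 2.00 times in WT. SAP made up 75.9% and 59.6% of the summed adaptor RPKM in KO libraries, against 69.7% and 66.3% in WT libraries. ERT made up 0.178% and 0.341% in KO, against 1.08% and 0.499% in WT. The KO libraries lay outside the WT range of the SAP share on both sides, whereas for the small ERT share both KO libraries lay below both in WT.

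**Figure D3:**
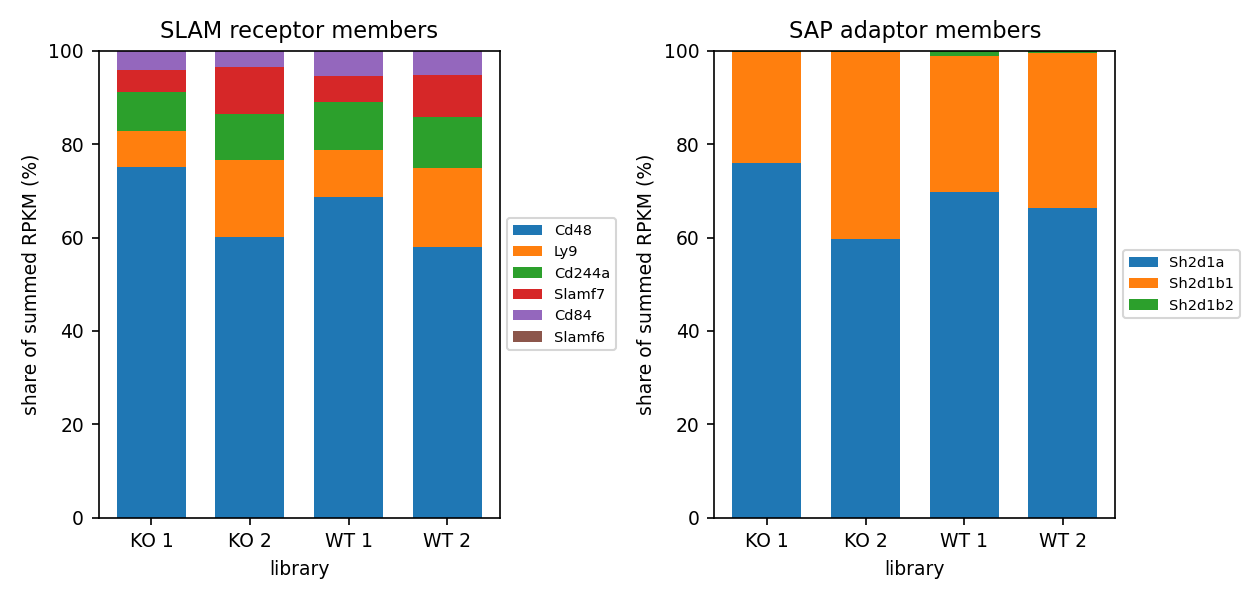
Share of each gene in the summed RPKM of the 6 receptor genes (left panel) and of the 3 adaptor genes (right panel), in percent, for each KO and WT library. Cd48 takes 58.0% to 75.1% of the receptor sum and Sh2d1a 59.6% to 75.9% of the adaptor sum, and Slamf6 is too small to be seen.

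Summed over the 6 receptors, levels were 886 and 765 RPKM in KO libraries and 758 and 639 RPKM in WT libraries, a sum that Cd48 dominates. The 3 adaptors summed to 240 and 143 RPKM in KO libraries and 249 and 179 RPKM in WT libraries. The adaptor sums overlapped between genotypes. The receptor sums did not with TMM scaling, but they did when counts were scaled to the library total, at 920 and 738 RPKM in KO libraries and 774 and 625 RPKM in WT libraries.

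Other receptors of the CD2 and SLAM family were near the detection limit apart from Cd2, the adhesion receptor that in mice also binds CD48. Cd2 stood at 592 and 543 CPM in KO libraries, against 515 and 514 CPM in WT libraries, with a log2 fold change of 0.14 (SE 0.19). Slamf1, the founding member of the family, had 3 and 4 counts in KO and 5 and 2 in WT. Slamf9 had 8 and 0 counts in KO and 5 and 3 in WT. Slamf8, a receptor of myeloid cells, had 34 and 3 counts in KO and 6 and 7 in WT, high in the KO library that also had the most Lyz2 (258 CPM). The 3 genes were not kept for testing.

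The SLAM receptor genes lie together on chromosome 1, and Slamf6 was the single tested gene of the region with an unadjusted edgeR p under 0.05. From Cd244a to Slamf8, a span of 1032 kb, 16 of 28 genes in the table were tested, 6 of them SLAM receptors. The 10 others had log2 fold changes from -0.23 to 0.40, a median of 0.00, and no unadjusted edgeR p under 0.315. Cd84, the nearest tested gene on one side, stood at -0.20 and Vangl2, the nearest on the other, at 0.21 (SE 0.58) with a mean of 0.441 CPM.

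**Figure D4:**
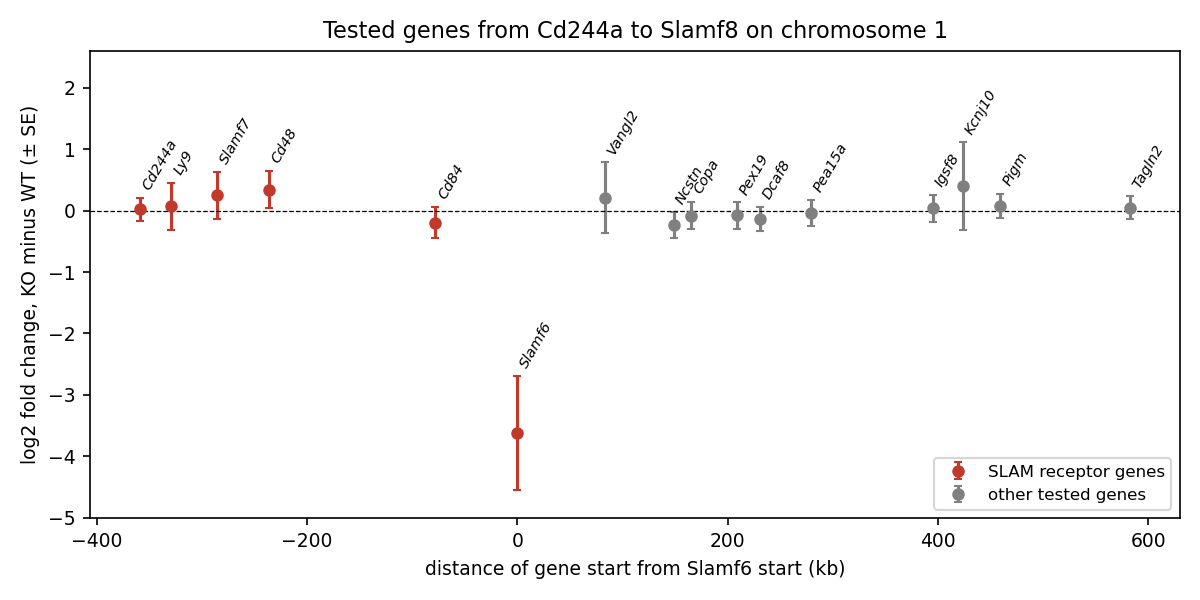
Log2 fold change (KO minus WT, edgeR, bars show the SE) of the 16 tested genes from Cd244a to Slamf8, by distance of the gene start from that of Slamf6 in kb; SLAM receptors are red. Slamf6 stands at -3.62 and all others between -0.23 and 0.40.

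Signalling partners of the receptors were followed as a list of 41 genes, all of them tested. None passed in edgeR over all genes or in DESeq2, 17 lay above 0 and 24 below, and the median log2 fold change was -0.01, the same as over all genes. At an unadjusted p under 0.05 there was 1 gene (2.44%, beside 2.84% of all tested genes). It was Fgr, a Src-family kinase, at 72.2 and 63.6 CPM in KO libraries against 41.4 and 28.4 CPM in WT libraries, with a log2 fold change of 0.96 (SE 0.28, edgeR unadjusted p = 0.0210, adjusted p = 1.00). With the library number as a further term, edgeR called Fgr (log2 fold change 0.98, SE 0.14, adjusted p = 0.00840) and none of the other 40. Fgr is also expressed by myeloid cells, and the part of such cells was not tested. Their marker sums without Itgax were 665 and 102 CPM in KO libraries and 191 and 41.7 CPM in WT libraries. The genotypes thus overlapped, but at either library number the KO sum was the higher. All 18 tested myeloid and dendritic markers had log2 fold changes above 0. Between the libraries 2, however, Csf1r, Adgre1, Mpeg1, Cd300a, C1qa and Vcam1 lay lower in KO than in WT, and the other tested markers did not. Lyz2, S100a8 and S100a9 stood at 18.5, 22.3 and 22.3 CPM in KO library 2, against 3.31, 0.687 and 0.534 CPM in WT library 2. In 6 of the 41 (14.6%) the groups did not overlap, beside 21.2% of all tested genes.

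Fyn, the kinase that SAP brings to the receptors, stood at 595 and 628 CPM in KO libraries, against 706 and 760 CPM in WT libraries, with a log2 fold change of -0.26 (SE 0.19). Lck, a related kinase, stood at 854 and 998 CPM in KO libraries, against 1042 and 1073 CPM in WT libraries (log2 fold change -0.19, SE 0.20). In both, the KO libraries lay below the WT libraries, and neither passed. The inhibitory branch did not pass either, with Ptpn6, which encodes the phosphatase SHP-1, at 0.37 (SE 0.34), Ptpn11, which encodes SHP-2, at 0.07 (SE 0.28), and Inpp5d, which encodes the lipid phosphatase SHIP-1, at -0.01 (SE 0.68) on the log2 scale. The most abundant partners per length were the adaptor genes Tyrobp (log2 fold change -0.03) and Hcst (-0.04), then Lck and the adaptor gene Dok2 (-0.06).

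The 9 genes were also compared between the libraries of each genotype. Library 2 lay above library 1 in both genotypes for Slamf7 and Ly9. It lay below library 1 in both for Slamf6, Cd244a, Cd48, Cd84, Sh2d1a and Sh2d1b1, by little in KO for Cd244a and Sh2d1b1. A shared direction was also found in 80.6% of all tested genes, so it was not a trait of this family. The labels do not say what the library number stands for.

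**Figure D5:**
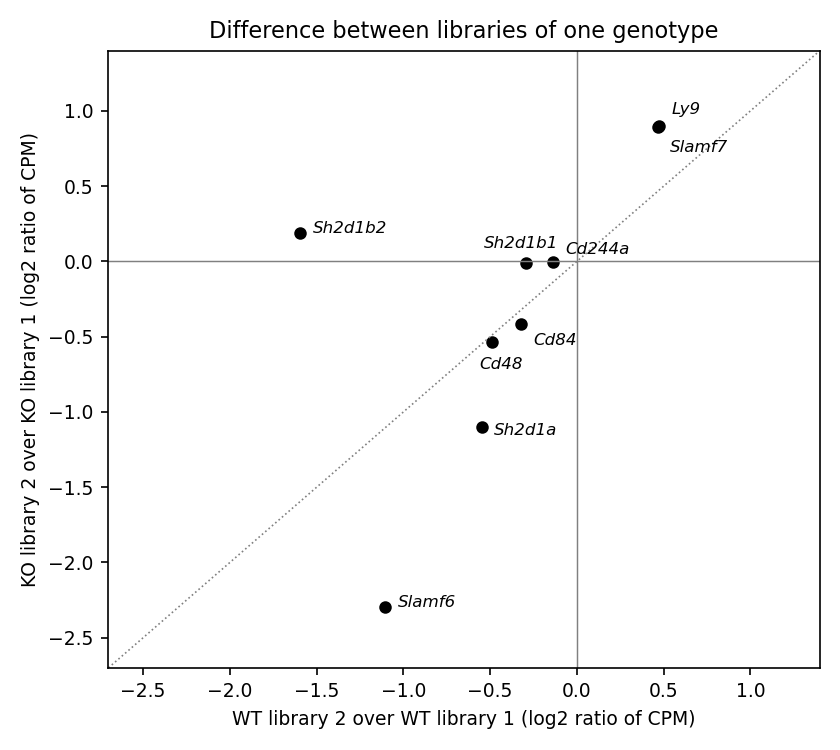
Log2 ratio of CPM of library 2 over library 1 in KO (vertical axis) and in WT (horizontal axis) for the 9 genes; the dotted line marks equal ratios. Slamf7 and Ly9 are above 0 in both genotypes, and Sh2d1b2 alone has ratios of opposite sign, 0.19 in KO and -1.60 in WT.

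Among 9286 genes with a mean of at least 5 CPM, those with the pattern closest to Slamf6 over the 4 libraries were Adgrl4, an adhesion receptor gene, Klra1, a Ly49 receptor gene, and Pttg1, the securin gene. Their distances, Euclidean on centred log2 CPM, were 0.744, 0.983 and 1.01. Adgrl4 stood at 4.64 and 3.22 CPM in KO libraries and 39.3 and 31.4 CPM in WT libraries. The genes closest to Sh2d1b2 were Cirbp (0.284), which encodes a cold-inducible RNA-binding protein, and the interferon-induced genes Oas1a (0.453) and Ddx60 (0.471). Cirbp stood at 45.5 and 41.8 CPM in KO libraries and 152 and 70.2 CPM in WT libraries, again highest in WT library 1. The 0.1 CPM added before taking logs is of the size of the KO levels of Slamf6 and Sh2d1b2. It narrows their differences, but hardly those of genes with a mean of at least 5 CPM. The genes closest to Sh2d1b2 had log2 fold changes of -1.35 (Cirbp), -1.22 (Oas1a) and -1.19 (Ddx60), beside its own -1.94. With 4 libraries these distances describe likeness and nothing more.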

How the data were processed

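The authors deposited raw counts, whole numbers per Entrez gene, with gene lengths in bases, per the file headers. The counts came from featureCounts against mm10 according to the submitters' processing notes. The aligner, the versions, the annotation release and the strand setting are not given in the sources used here. Per the labels' protocols, libraries were made with a TruSeq RNA kit from sorted cells and read as pairs. Positions and symbols came from a RefSeq table of GRCm38.p6, the same assembly as mm10, which named 25275 of 26611 genes (95.0%). Genes without a symbol held 0.760% to 2.46% of the counts and were tested with the rest.

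Genes were kept with filterByExpr (minimum count 10), and KO was compared with WT in edgeR 4.0.16 under R 4.3.3 by a two-sided quasi-likelihood test (TMM scaling, robust dispersion, a genotype term alone). P-values were adjusted by Benjamini-Hochberg over 12723 genes. DESeq2 1.42.0 and limma 3.58.1 (voom) were alternatives, run on the same genes. Patterns were compared on log2 CPM with 0.1 added. The tests were also run on simulated data. Those libraries were drawn independently, without an effect of library number, so they cannot show how the tests behave with such an effect. No library was a copy of another (chi-square per degree of freedom 36.5 to 282). The sums and shares have no test.

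The members and gene lists were chosen with earlier results of these data known. The named genes are the 9 members, Tcf7, the sorted proteins, the other CD2 and SLAM receptors, signalling partners past an unadjusted p of 0.05 or among the 4 most abundant per length, and the 3 genes closest in pattern to the 2 members of largest change. Fyn, Ptpn6, Ptpn11, Inpp5d, Vangl2, Trac, Lyz2, Mpo, Elane, Il7r, Tnfrsf25 and Itgax were named after their values were seen. So were Csf1r, Adgre1, Mpeg1, Cd300a, C1qa, Vcam1, S100a8, S100a9 and Gata3. Mast cell, basophil and platelet markers summed to 12.5 and 2.88 CPM in KO and 4.67 and 2.04 CPM in WT.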

Additional observations from a re-analysis of the deposited data

How the results depend on the processing

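Over all genes the edgeR count of 0 called genes became 35 with no filter on low counts, and DESeq2 called 71, or 78 over all genes with a count. Leaving out each library in turn gave 0 to 53 genes in edgeR and 33 to 53 in DESeq2 (51 without KO library 1 or WT library 1, 53 without KO library 2, 33 without WT library 2). With the library number as a replicate block, edgeR called 221 genes (1.74%) and DESeq2 240 (1.89%). Of the 9 SLAM and SAP genes, edgeR with the block called 1, Slamf6 (log2 fold change -3.70, adjusted p = 0.0106), DESeq2 with the block called 1, Slamf6 (-3.79, adjusted p = 0.00235), and DESeq2 over all genes with a count called 1, Slamf6 (-3.63, adjusted p = 0.0371). With 2 pairs and no label that ties the numbers to a litter or batch, the libraries share only a number. Their deviations from the group means, which with 2 libraries per group are mirror images, had a correlation of 0.743 over genes. In the other 14 alternatives none of the 9 was called. Slamf6 kept its sign in all 16 alternatives that tested it, from -5.16 to -2.83, with adjusted p-values from 0.00235 to 1.00, and Sh2d1b2 in all 16, from -2.55 to -0.94. Neither was tested with a filter of at least 5 CPM in 2 libraries. With all 4 libraries no gene of the 9 changed sign. With a library left out, edgeR and DESeq2 gave Slamf7 -0.24 to 0.64 (edgeR -0.23 to 0.63), Ly9 -0.42 to 0.47 (edgeR -0.41 to 0.45; DESeq2 -0.12 without WT library 1), Sh2d1a -0.78 to 0.35 (DESeq2 -0.77 to 0.34, and 0.20 without WT library 1), Cd84 -0.42 to 0.026 (DESeq2 -0.41 to 0.016) and Cd244a -0.039 to 0.12 (edgeR -0.033 to 0.086), and the cause was not tested. A lone library in a genotype was then taken to vary like the pair of the other. The summed RPKM moved by less than 1 SD under other scalings. DESeq2 with a block, over all genes or without a library was added after seeing the data. Counting depth limits Slamf6 and Sh2d1b2, whose KO libraries held 2 to 8 counts.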

Other observations

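In 27 of the 41 signalling partners of the SLAM receptors (65.9%), library 2 lay above library 1 in both KO and WT, beside 40.1% of all tested genes. Inpp5d, which encodes the lipid phosphatase SHIP-1, stood at 174 and 577 CPM in KO libraries and 251 and 504 CPM in WT libraries. The difference from all genes was not tested.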
